A study of Mus musculus with 6 samples.

Results

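Superficial, or umbrella, cells line the lumen of the bladder and form the outermost layer of the urothelium. They are large, long-lived cells whose apical membrane is covered by plaques of uroplakin proteins, which are delivered and taken back in vesicles as the bladder fills and empties, and their tight junctions seal the epithelium against urine. Basal and intermediate cells lie beneath them and can replace them after loss. Cyclophosphamide (CPP), a nitrogen mustard prodrug, is excreted as the urinary toxicant acrolein and is known to damage this layer.

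Non-cycling superficial cells were counted in 6 libraries of mouse bladder mucosa, and 3646 of 56629 barcodes met the rule. All mice were wild type C57BL/6, 8 weeks old. The healthy group was untreated, the acute group was taken 48 hours after CPP and the chronic group on day 11 of 4 rounds of CPP. Each group had 2 libraries. By the paper's methods, chronic bladders were also taken 48 hours after their last injection, and each chronic dose was smaller than the acute one. Mucosa was peeled from the muscle and digested with collagenase and DNase before droplet capture, so cells lost before or during digestion could not be counted.

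A cell was taken as superficial where it had over 500 genes, at least 20 UMIs (unique molecular identifiers, each 1 captured mRNA molecule) of 6 epithelial keratins, more keratin than 2 times its collagen and Dcn UMIs, no UMI of Ptprc or Pecam1, and at most 2 UMIs of the mitotic genes Top2a, Mki67, Birc5 and Ube2c. It also needed at least 5 UMIs of Acer2 plus Krt20, more than its UMIs of the basal genes Krt5, Krt14, Col17a1 and Dlk2. Acer2 (chr4:86874396-86934822 in mm10, + strand) encodes alkaline ceramidase 2, and Krt20 (chr11:99428403-99438150, - strand) encodes the keratin long used to stain umbrella cells. Cells that met all but the last condition, 32865 in number, are called other non-cycling urothelial cells below. They hold the basal and intermediate cells and also superficial cells with too few UMIs of the chosen genes.

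Healthy replicates 1 and 2 gave 357 and 343 superficial cells, acute replicates 629 and 631, and chronic replicates 983 and 703. Their summed UMIs ran from 2894216 to 6970893 per library. The median superficial cell held 19421 and 15525 UMIs in the healthy libraries, 15745 and 18467 in the acute and 10106 and 15013 in the chronic ones, which was 1.76 to 1.89 times the median of the other urothelial cells of the same library. The rule counts raw UMIs, so a deep cell passed it more easily than a shallow one with the same composition. Results are therefore also given for 2 stricter forms of the rule, which asked for at least 10 UMIs of Acer2 plus Krt20, or for at least 5 UMIs and 1 per 1000 UMIs of the cell. The second form left 40 and 117 healthy cells, 294 and 162 acute cells and 449 and 263 chronic cells. The part of the members kept thus differed between libraries, and was smallest in healthy replicate 1.

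Whole libraries held 54604109 to 111985678 UMIs. The study processed and sequenced them in batches, but the labels do not say which library belonged to which, so batch and group cannot be told apart. The 2 libraries of a group are biological replicates by the study, and the labels do not tie them to single mice. Barcodes shared by 2 libraries numbered 36 to 229 a pair, and 8 of these were superficial in both. The acute replicate 2 table listed 9.32% of its gene identifiers in no other table, and the last line of the healthy replicate 1 table was cut off. The 14338 genes present in all tables were used. In superficial cells the stromal genes outside the rule summed to 223 to 898 CPM (UMIs of a gene scaled to a common library total), against 13592 to 32082 CPM in stromal cells. The highest sum was in acute replicate 2. Leukocyte genes (14) summed to 49.95 to 255 CPM with at most 1 gene at 0. Endothelial genes (7) summed to 3.46 to 14.1 CPM with up to 3 at 0. The part of these cell types in the results below was not tested.

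The markers of the label that the rule did not count were higher in superficial than in other urothelial cells of each library. Psca (chr15:74714839-74717069), a small membrane-anchored protein of the Ly6 family, stood at 6485 and 12098 CPM in superficial cells of the healthy libraries, at 14150 and 14311 CPM in the acute and at 15906 and 12009 CPM in the chronic ones. In other urothelial cells of the same libraries it stood at 1134 to 4691 CPM, so no superficial sum overlapped with them. Healthy replicate 1 had the lowest Psca of the 6. Fam25c (chr14:34351881-34355433) averaged 8732 ± 2625 CPM (SD, n = 6 libraries) against 1186 ± 499 CPM, and Cldn8 (chr16:88560828-88563183), a claudin of tight junctions, averaged 173 ± 44.4 against 39.7 ± 5.81 CPM. Clu (chr14:65968483-65981547), the secreted chaperone clusterin, reached 296 and 2111 CPM in healthy, 529 and 428 CPM in acute and 1202 and 683 CPM in chronic libraries. It varied more between the healthy replicates than between groups, yet exceeded the other urothelial cells of the same library in 6 of 6 libraries. After each cell was thinned to 4000 UMIs, Psca was detected in 95.5% to 100% of superficial and 63.5% to 99.8% of other urothelial cells. It was detected in 30.9% to 97.1% of stromal cells. Psca UMIs were thus also found in cells of a type not known to make it, which free RNA in droplets can give. For Cldn8 the shares were 19.9% to 36.8% in superficial, 5.75% to 9.81% in other urothelial and 1.32% to 4.41% in stromal cells. Krt20, a gene of the rule, was found in 29.8% to 48.4% of thinned superficial cells. Krt5 was found in 18.1% to 35.9% of them and in 62.2% to 74.1% of other urothelial cells. For Trp63 these shares were 11.3% to 17.8% and 26.2% to 39.3%. In stromal cells Krt5 was found in 9.95% to 29.4% and Trp63 in 3.75% to 15.5%. Some members thus also held UMIs of basal genes, and the part of free RNA in them was not tested.

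Because the rule chose the cells in the comparison of superficial with other urothelial cells, levels in that comparison are a description and carry no test. Of 13102 genes compared, 2735 (20.9%) were higher in superficial cells in 6 of 6 libraries and 2922 (22.3%) were lower in 6 of 6. These shares are the background for the gene groups that follow. The median log2 ratio of all genes was -0.02, computed on CPM plus 1.

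The uroplakins are the structural proteins of the apical plaques, and 5 of 6 were higher in every library. Upk1b, a tetraspanin, averaged 3614 ± 508 CPM in superficial and 1237 ± 236 CPM in other urothelial cells. Upk1a, the other tetraspanin of the plaque, averaged 7128 against 2797 CPM, Upk2 1750 against 641 CPM and Upk3a 6226 against 2537 CPM. The log2 ratios of these 4 genes lay between 1.33 and 1.56, and Upk3b followed at 0.99. Upk3bl, a uroplakin-like gene, went the other way at 3.29 against 21.6 CPM. The other urothelial cells held all 4 plaque genes too, with Upk2 the lowest of them at 641 CPM.

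**Figure D1:**
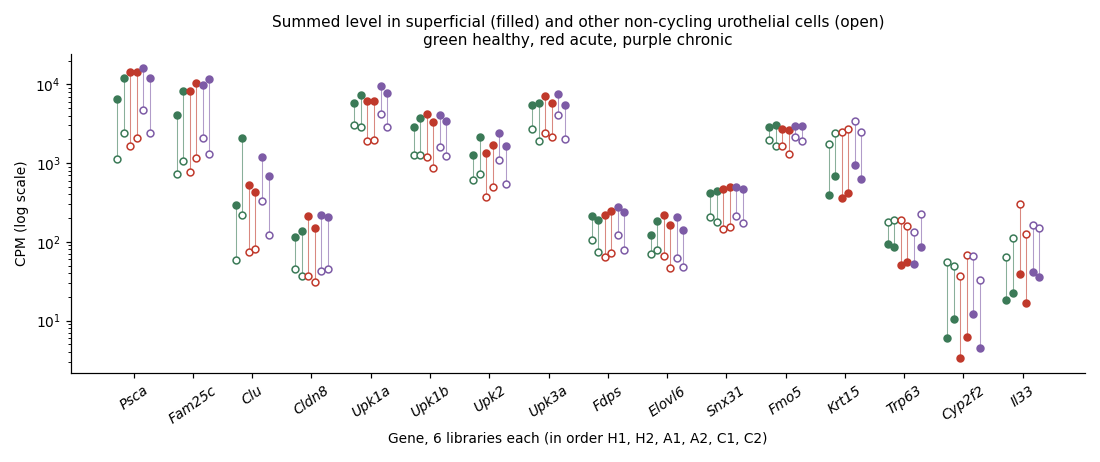
Summed level (CPM, log axis) of 16 genes in superficial cells (filled) and other non-cycling urothelial cells (open), 1 point per library and class, joined within a library. The 4 markers, the uroplakins and the lipid genes lie higher in superficial cells in each library, for example Cldn8 at 173 against 39.7 CPM on average, while Krt15, Trp63, Cyp2f2 and Il33 lie lower.

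Genes of sterol and fatty acid synthesis were mostly higher. Of 34 compared, 25 were higher in superficial cells in 6 of 6 libraries and 5 were lower, with a median log2 ratio of 0.79. Fdps (chr3:89093588-89101959), the farnesyl diphosphate synthase of the mevalonate pathway, stood at 214, 190, 221, 244, 279 and 240 CPM in superficial cells (healthy, acute and chronic replicates in order) and at 64.0 to 122 CPM in the others. Elovl6, which elongates saturated fatty acids, averaged 174 ± 38.3 against 61.5 ± 12.5 CPM. Along the cholesterol pathway, Nsdhl had a log2 ratio of 1.37, Lss 1.13, Idi1 1.06, Dhcr7 1.05, Msmo1 0.79 and Hmgcs1 0.79. The regulators were mixed. Insig1, which holds the sterol sensor in the endoplasmic reticulum and is itself a target, was higher (1.05), Srebf2 was level at 124 and 120 CPM, and Srebf1 (-0.41) and the desaturase Fads1 (-0.80) were lower. The counts of 25 and 5 were the same under both stricter rules, with medians of 0.86 and 0.95.

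Sterol genes are classically controlled through a sterol response element in their promoters. Its core, searched as TCACNCCAC on both strands in the 250 bases before the annotated start (RefSeq, GRCm38.p6), occurred in 1 of 24 sterol and fatty acid genes matched by symbol and in 1.04% of 27025 promoters. The gene was Hmgcs1, the HMG-CoA synthase of the pathway, and its promoter at chr13:119690101-119690350 on the + strand is shown because its level differed between the classes. The capitals mark the match, which starts 137 bases before the RefSeq gene start and is a match of letters, not a measured binding site.
Hmgcs1: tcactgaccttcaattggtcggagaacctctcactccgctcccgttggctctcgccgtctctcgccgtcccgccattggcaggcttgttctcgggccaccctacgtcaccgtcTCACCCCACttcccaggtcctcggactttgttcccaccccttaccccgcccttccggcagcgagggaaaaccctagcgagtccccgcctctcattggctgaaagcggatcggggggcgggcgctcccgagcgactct

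Ceramide enzymes, the group that holds the rule's own Acer2, were mixed. Among the 28 others, 13 were higher and 9 lower in every library, with a median log2 ratio of 0.24. Cers3, the synthase of very long chain ceramides known from the skin barrier, averaged 170 ± 39.4 against 73.8 ± 13.95 CPM, and Sptlc3, a subunit of the first enzyme of sphingolipid synthesis, 69.0 against 33.0 CPM. Its small activating subunit Sptssb reached 3664 against 2259 CPM. Cers2 (log2 ratio -0.84) and the glucosylceramide synthase Ugcg (-0.73) were lower.

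Membrane traffic delivers uroplakin plaques to the apical surface. Of 26 genes of vesicle trafficking, 13 were higher and 4 lower in every library. Snx31, a sorting nexin that binds uroplakin-carrying endosomes, stood between 412 and 498 CPM in superficial cells of the 6 libraries and between 145 and 211 CPM in the others. Rab27b averaged 561 ± 68.3 against 353 ± 24.0 CPM, Rab11a 536 against 334 CPM and the motor Myo5b 50.5 against 33.5 CPM. Rab27a, the close relative of Rab27b, was lower at 18.4 against 36.8 CPM.

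Tight junction genes as a group were near the background, with 5 of 18 higher and 4 lower. Cldn8 (log2 ratio 2.07) stood out from the other claudins: Cldn23 had 0.55, while Cldn4 (982 against 1383 CPM) and Cldn7 (272 against 369 CPM) were lower. Ion and water transport genes were split as well, with 7 of 24 higher and 8 lower. The inward rectifier channel Kcnj15 (21.3 against 1.94 CPM), the bicarbonate transporter Slc4a4 (50.3 against 20.2 CPM) and the carbonic anhydrase Car2 (54.4 against 22.1 CPM) were higher, and the water channel Aqp3 (512 against 926 CPM) and the potassium channel Kcnn4 (10.4 against 56.2 CPM) were lower.

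Attachment genes, which anchor the basal layer to the basement membrane, were mostly lower. Of 14 hemidesmosome and integrin genes outside the rule, 10 were lower in 6 of 6 libraries and 3 higher, with a median log2 ratio of -0.57. Itgb4 averaged 24.98 ± 4.21 against 68.2 ± 11.1 CPM, its partner Itga6 52.4 against 128 CPM, and the laminin chain Lamb3 23.4 against 68.5 CPM. Keratins outside the rule were lower in 5 of 5 cases, among them Krt4 (66.0 against 223 CPM) and Krt23 (121 against 247 CPM). Krt15, which the rule counted among its keratins, stood at 571 against 2541 CPM.

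Most urothelial transcription factors were lower, 16 of 24 in every library, against 2 that were higher. Trp63, the master factor of basal cells, averaged 71.1 ± 19.9 against 178 ± 31.1 CPM, Klf4 101 against 291 CPM and Klf5 170 against 321 CPM. The 2 higher factors were Pparg (99.5 against 74.9 CPM) and Grhl3 (249 against 211 CPM), both known for umbrella cell differentiation. Gata3 was level at 404 CPM in both classes. Immediate-early genes, which are known to respond to tissue dissociation, summed to 7108 to 10573 CPM in superficial and 10733 to 13971 CPM in other urothelial cells, and 12 of 31 were lower with none higher in every library. The part of dissociation in the lower factors was not tested.

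Detoxification genes were mostly lower. Of 41 xenobiotic and glutathione genes, 23 were lower and 5 higher in 6 of 6 libraries. The cytochrome Cyp2f2 averaged 7.08 ± 3.42 against 51.4 ± 14.5 CPM, the lowest ratio of any gene with at least 50 CPM in the other cells (log2 ratio -2.76). The aldehyde dehydrogenase Aldh3a1 (87.9 against 375 CPM), the quinone reductase Nqo1 (76.3 against 203 CPM) and the glutathione transferase Gsto1 (872 against 2125 CPM) were lower too. The monooxygenase Fmo5 was an exception, at 2844 ± 162 against 1760 ± 287 CPM.

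Host defence genes were mixed. Of 23 antimicrobial and antiprotease genes, 7 were higher and 11 lower. Pigr, the receptor that carries antibodies across epithelia, averaged 22.3 against 2.09 CPM, the interleukin-1 antagonist Il1rn 72.4 against 27.1 CPM and the protease inhibitor Cst6 70.5 against 25.2 CPM. Defb1, a constitutive defensin, and Wfdc2 were lower (58.5 against 111 CPM and 2859 against 5143 CPM). Among NF-kB, cytokine and chemokine genes 12 of 22 were lower and 2 higher, and the alarmin Il33 stood at 28.8 against 152 CPM. Cornified envelope and gasdermin C genes, counted as 1 list, were higher in 7 of 16 cases and lower in 3, led by Sprr2a3 (4970 against 2020 CPM) and Sprr1a (14182 against 5722 CPM), while Gsdmc2 (255 against 441 CPM) and Gsdmc3 (52.9 against 125 CPM) were lower. The Sprr2 and Gsdmc genes are families of near-identical copies, and reads may have been split among members. Of 9 Ly6 genes 5 were lower and 2, Psca among them, higher. Of 14 EGF family ligands and receptors 3 were higher and 5 lower in every library, with a median log2 ratio of -0.04. Among the ligands, Tgfa was higher (121 against 57.2 CPM) and Hbegf (322 against 670 CPM) and Areg (261 against 490 CPM) were lower.

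**Figure D2:**
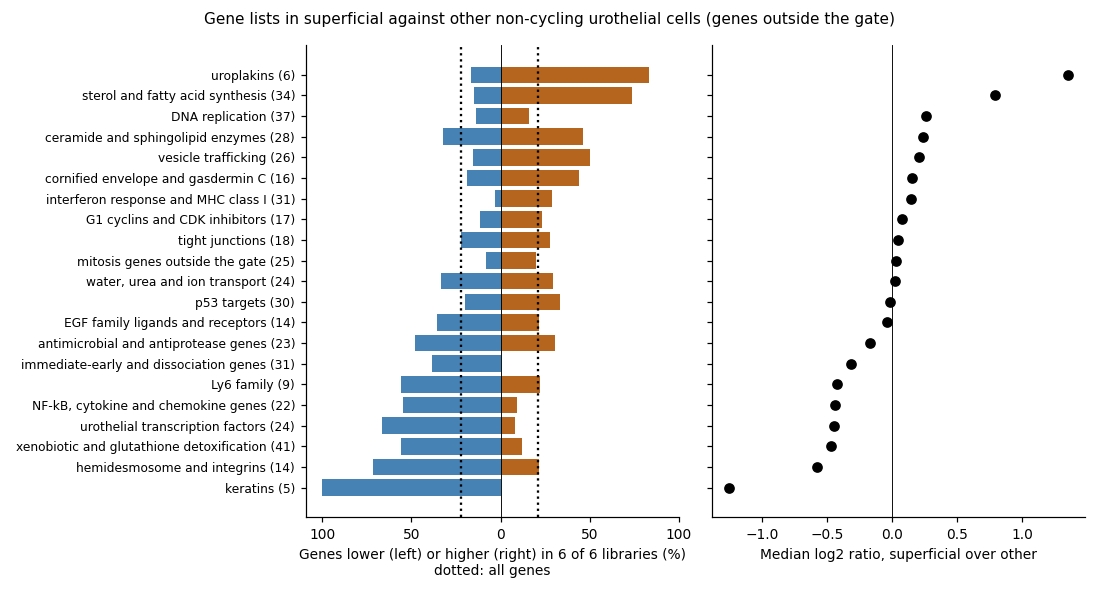
Left, share of the genes of each list (number compared in brackets) that were lower or higher in superficial cells in 6 of 6 libraries, with dotted lines at the shares over all genes (20.9% higher, 22.3% lower). Right, the median log2 ratio of each list shown, which runs from 1.35 for uroplakins to -1.25 for keratins. Lists of cell type markers are not shown.

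Outside the lists, the genes highest in superficial cells included Slc16a12, a creatine transporter (52.7 against 3.82 CPM, log2 ratio 3.47), S100a1, a calcium-binding protein (2658 ± 928 against 487 ± 246 CPM), Fabp4, a fatty acid carrier (1355 against 341 CPM), Tspan6 (423 against 92.7 CPM), Serpinb6b (60.2 against 7.63 CPM) and Rgs5 (299 against 55.6 CPM). Meg3, Itm2a and Bglap2 were also among the 20 highest. Whether RNA of other cell types entered these values was not tested. Trf, transferrin, was among the lowest at 54.4 against 311 CPM. Slc16a12 and S100a1 were lowest in healthy replicate 1, as Psca and Clu were.

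The superficial cells formed a gradient along the UMIs that chose them. Of the members, 956 (26.2%) had 5 or 6 UMIs of Acer2 plus Krt20, 851 (23.3%) had 7 to 9, 1145 (31.4%) had 10 to 19 and 694 (19.03%) had 20 or more. A further 2016 cells with 3 or 4 UMIs were just outside. From just outside through the 4 bins, the mean CPM over libraries of Psca went through 4777, 6427, 8653, 12731 and 19573, and that of Upk1a through 4220, 5147, 5982, 7103 and 8921. Trp63 went the other way, through 129, 109, 84.1, 61.1 and 35.2 CPM, and Krt15 through 1206, 891, 640, 498 and 323 CPM. The glucuronosyltransferase Ugt2b34 dropped from 401 CPM just outside to 56.9 CPM in the highest bin. No gap in these values marked the limit of 5 UMIs. All these measures share the cells and the depth that the rule used, and are a description. The sampling of members along this gradient differed between groups: 38.4% and 39.1% of healthy members had 5 or 6 UMIs, against 17.5% and 22.0% of acute and 26.4% and 25.04% of chronic members.

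**Figure D3:**
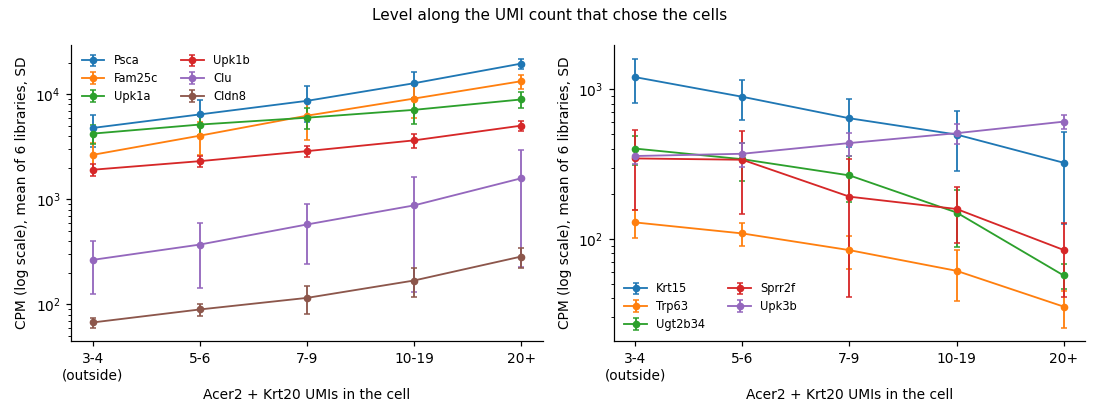
Mean CPM (log axis, bars SD over 6 libraries) of 11 genes in cells grouped by their UMIs of Acer2 plus Krt20, the first bin lying outside the rule. Psca rises from 4777 to 19573 CPM and Krt15 drops from 1206 to 323 CPM with no step at 5 UMIs.

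The share of superficial cells among the captured non-cycling urothelial cells was larger in the injured libraries. The share was 6.49% (95% Wilson interval 5.87 to 7.17) and 4.87% (4.39 to 5.399) in the healthy libraries, 13.9% (12.9 to 14.9) and 11.1% (10.3 to 11.97) in the acute and 10.7% (10.1 to 11.4) and 15.3% (14.3 to 16.3) in the chronic ones. All 4 injured libraries lay above both healthy ones, and the intervals cover counting error only. The means were 5.68 ± 1.15%, 12.5 ± 1.94% and 13.0 ± 3.21% (SD, n = 2). These shares are a description, since the rule's own genes set them and an exact permutation test of 2 against 2 libraries cannot give a p below 0.333. The direction was the same under both stricter rules (1.19% healthy, 4.67% acute and 5.31% chronic with 1 per 1000 UMIs). It was also the same when every cell was thinned to 4000 UMIs (1.24%, 4.91% and 5.08%). Thinning also took cells below the depth or keratin limit. Non-cycling urothelial cells went from 5500 and 7041 to 2956 and 4966 in healthy libraries. They went from 4537 and 5672 to 3663 and 4140 in acute and from 9158 and 4603 to 7675 and 3450 in chronic ones. Since Acer2 and Krt20 set the share, more cells of this type and more Acer2 or Krt20 mRNA per cell cannot be told apart. Capture of the other layers also enters the share. Losses by RNA quality were uneven. With over 1000 genes and under 5% mitochondrial UMIs, members went from 343 to 198 in healthy replicate 2 and from 983 to 584 in chronic replicate 1. In chronic replicate 2 they went from 703 to 693. The mean shares were then 4.62% in health, 12.2% in acute and 11.6% in chronic injury. Acute and chronic libraries overlapped.

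Cells with superficial markers that exceeded the mitotic limit were left out of the class, and their number moved with injury. There were 6 and 6 in the healthy libraries, 400 and 148 in the acute and 73 and 73 in the chronic ones. They made up 1.65% and 1.72% of all cells with superficial markers in health, 38.9% and 18.999% in acute and 6.91% and 9.41% in chronic injury. The 3 groups did not overlap, which is a description too, since genes of the rule define this share. The mitotic limit also counts raw UMIs. With every cell thinned to 4000 UMIs the share was 0% and 1.27% in health, 3.10% and 0% in acute and 0.28% and 1.03% in chronic injury. The groups then overlapped, with at most 8 such cells in a library. These cells held 13356 to 28076 UMIs at the median, in each library more than its superficial cells. Scrublet, a doublet caller, marked 0 to 16.7% of them, the highest share being that of the 6 cells in healthy replicate 1. It marked 1.68% to 4.68% of the members, and no cell was removed for it here.

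**Figure D4:**
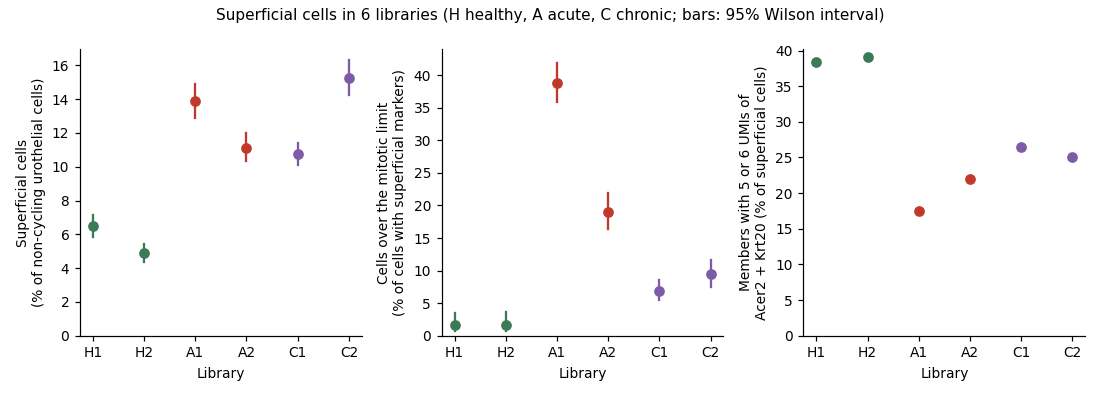
Per library, the superficial share of non-cycling urothelial cells, the share of marker-positive cells over the mitotic limit, and the share of members with 5 or 6 UMIs of Acer2 plus Krt20 (points, with 95% Wilson intervals in the first 2 panels). Injured libraries are higher than healthy ones in the first 2 panels, for example 38.9% and 18.999% against 1.65% and 1.72% over the mitotic limit, and lower in the third.

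Gene levels in superficial cells were compared between groups on summed UMIs with edgeR's quasi-likelihood test over 11594 genes. Acute against healthy gave 3 genes with adjusted p below 0.05 (0.0259%), all lower: the globins Hbb-bs, Hba-a1 and Hba-a2. Chronic against healthy gave 0 (0.00%) and acute against chronic 0 (0.00%), beside 662 (5.71%), 733 (6.32%) and 486 (4.19%) genes at an unadjusted p below 0.05. DESeq2 called 15, 28 and 0 genes. Without healthy replicate 1 there were 0 calls for acute against healthy, without acute replicate 2 there was 1, and without acute replicate 1 there were 58. In these fits a group of 1 library is assumed to vary like the other groups. For acute against chronic, leaving out acute replicate 1 gave 66. Whether libraries of 2 groups overlapped is therefore given for the groups below, beside the share over all genes: 17.4% of genes were higher and 17.3% lower without overlap in acute against healthy, and 17.7% and 17.7% in chronic against healthy. The 2 comparisons share the healthy libraries.

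The globins are made by red blood cells. Hbb-bs stood at 267 and 181 CPM in superficial cells of the healthy libraries, 1.29 and 0.152 CPM in the acute and 12.3 and 3.74 CPM in the chronic ones (log2 change -8.26 ± 0.75 SE in acute, adjusted p = 0.0257). The sum of the 3 globins moved likewise in the other urothelial cells, from 490 and 375 CPM in health to 32.5 and 0.858 CPM in acute and 71.8 and 10.1 CPM in chronic injury. A red cell removal step was part of the preparation, and its part in these values was not tested.

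DNA replication genes lay above health in injured superficial cells. The mitotic limit counts only Top2a, Mki67, Birc5 and Ube2c, and non-cycling here means at or below that limit. It counts no replication gene, so cells copying their DNA were not screened out by it. Whether such cells were among the members was not tested. Of 37 tested, 34 were above both healthy libraries in both acute libraries and none below, with a median log2 change of 1.10, against -0.00 over all genes. In chronic injury 25 of 37 were above and 1 below (median 0.71). No member had an adjusted p below 0.05 by edgeR. Mcm5 (chr8:75109569-75128439), a subunit of the replicative helicase, stood at 2.70 and 1.75 CPM in health, 15.5 and 15.3 CPM in acute and 6.60 and 9.50 CPM in chronic injury (log2 change 2.75 ± 0.39 SE, adjusted p = 0.167 by edgeR in acute). Acute libraries were the highest, chronic ones intermediate, and no group overlapped another. The healthy Mcm5 values rest on few UMIs, in sums of 3624688 and 2894216 UMIs over all genes. Mcm6, of the same helicase, stood at 5.95 and 4.55, 16.3 and 12.6, and 8.18 and 9.19 CPM in the same order. The ligase Lig1 stood at 13.0 and 9.80, 27.7 and 34.0, and 13.6 and 17.0 CPM. Pcna, the sliding clamp, differed less, at 15.1 and 15.4, 17.6 and 16.4, and 22.5 and 24.8 CPM.

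The replication difference depended on the rule. With at least 10 UMIs of Acer2 plus Krt20, 29 of 34 genes were above health in acute injury (median 0.95) and 17 of 34 in chronic injury (0.44). The share over all genes was 16.4% in each. With at least 1 per 1000 UMIs 5 of 28 were above and 2 below in acute injury (median 0.43), and 5 above and 7 below in chronic injury (median -0.01). Over all genes under that rule 18.8% were above and 16.02% below in acute injury and 18.6% and 16.7% in chronic injury, so the count above health was near the background in both. Summed over the list, replication genes reached 279 and 299 CPM in healthy, 536 and 475 CPM in acute and 421 and 411 CPM in chronic superficial cells. The excluded cells over the mitotic limit held 1968 to 2379 CPM in the injured libraries. In the healthy ones they held 1345.5 and 1301 CPM, from 6 cells each. Other urothelial cells of the same libraries held 339 to 489 CPM.

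E2F factors drive replication genes at the start of S phase. E2F-type motifs (TTTCCCGC or TTTGGCGC, either strand, which overlap each other where TTTGGCGC meets its own reverse complement) were present in the 250 bases before the start of 6 of 28 replication genes matched by symbol (Cdc6, Hells, Mcm5, Mcm6, Mcm7 and Pola1), in 0 of 24 sterol and fatty acid genes and in 1.35% of 27025 promoters. Those of Mcm5, Mcm6 and the licensing factor Cdc6 are printed as the replication genes with values above or with a single clear match, at chr8:75109259-75109508 (+), chr1:128359706-128359955 (-) and chr11:98907901-98908150 (+) of GRCm38.p6, with matches in capitals. They start 149 bases before the RefSeq gene start in Mcm5, which lies upstream of the GENCODE start given above, 110 and 47 in Mcm6 and 138 in Cdc6.
Mcm5: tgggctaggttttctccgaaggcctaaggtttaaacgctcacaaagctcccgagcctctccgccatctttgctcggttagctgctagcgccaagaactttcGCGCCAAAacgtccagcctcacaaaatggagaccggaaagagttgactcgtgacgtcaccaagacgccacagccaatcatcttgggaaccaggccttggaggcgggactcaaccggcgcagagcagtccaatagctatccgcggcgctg
Mcm6: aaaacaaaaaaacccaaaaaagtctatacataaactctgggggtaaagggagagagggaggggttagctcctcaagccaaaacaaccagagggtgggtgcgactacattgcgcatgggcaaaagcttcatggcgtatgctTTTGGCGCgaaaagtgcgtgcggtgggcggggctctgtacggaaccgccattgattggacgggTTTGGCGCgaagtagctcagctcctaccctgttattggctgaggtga
Cdc6: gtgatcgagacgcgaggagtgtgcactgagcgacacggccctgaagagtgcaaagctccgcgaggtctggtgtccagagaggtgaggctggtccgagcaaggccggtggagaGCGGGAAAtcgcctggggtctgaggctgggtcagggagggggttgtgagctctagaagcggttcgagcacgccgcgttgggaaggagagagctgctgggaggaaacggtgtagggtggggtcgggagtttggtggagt

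Of 26 mitosis genes outside the rule, 16 passed the filter on low counts. Above health without overlap were 13 of 16 in acute (median log2 change 1.12) and 14 of 16 in chronic injury (0.99). None had an adjusted p below 0.05 by edgeR. Without the filter 19 of 26 were above and 1 below in acute injury, and 20 above and 2 below in chronic injury. Over all genes 17.6% and 18.6% were then above. The rule itself capped 4 mitotic genes at 2 UMIs, so the remaining members are what a capped cell can still show. With at least 10 UMIs 6 and 7 of 9 genes were above health in acute and chronic injury (medians 0.51 and 0.35). The share over all genes was 16.4% in each. With 1 per 1000 UMIs 5 and 1 of 7 were above (0.41 and 0.09), beside 18.8% and 18.6% of all genes. The chronic count under that rule was thus near the background. H2afz, a histone H2A variant, stood at 378 and 374 CPM in health, 550 and 551 CPM in acute and 439 and 414 CPM in chronic injury.

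Targets of p53, the factor that answers DNA damage, lay above health in part. Of 30 tested, 11 were above health and 3 below in acute injury (median 0.34), and 16 above and 4 below in chronic injury (median 0.42), with none at an adjusted p below 0.05 by edgeR. Cdkn1a (chr17:29090976-29100727), the cell cycle inhibitor p21, stood at 138 and 169 CPM in health, 391 and 222 CPM in acute and 461 and 383 CPM in chronic injury (log2 change 1.46 ± 0.29 SE in chronic, adjusted p = 0.454 by edgeR). All injured libraries lay above both healthy ones. Phlda3 (chr1:135766119-135769136), an inhibitor of Akt signalling, stood at 48.9 and 71.1, 101 and 103, and 172 and 117 CPM. The pro-apoptotic Bax stood at 152 and 171, 286 and 271, and 273 and 264 CPM, and Ccng1, another p53 target, at 110 and 147, 377 and 178, and 283 and 266 CPM. Summed over the list, superficial cells held 3375 and 2826 CPM in health, 4405 and 2931 CPM in acute and 3765 and 3810 CPM in chronic injury. The acute sums thus overlapped the healthy ones. In other urothelial cells the sums were 3622 and 3706, 4569 and 3779, and 4030 and 4355 CPM. The medians of the p53 targets under the 2 stricter rules were 0.35 and 0.41 in acute and 0.52 and 0.40 in chronic injury. Without acute replicate 1 the acute median was 0.01, and without acute replicate 2 it was 0.58.

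Detoxification genes had no common direction after acute injury (6 of 40 above and 6 below), and 12 above and 4 below after chronic injury. Gpx2 (chr12:76792333-76795554), an epithelial glutathione peroxidase, stood at 60.6 and 88.5 CPM in health, 164 and 191 CPM in acute and 213 and 191 CPM in chronic injury (log2 change 1.44 ± 0.24 SE in chronic, adjusted p = 0.375). The heme oxygenase Hmox1 stood at 60.8 and 35.3, 103 and 82.9, and 113 and 114 CPM. Ugt2b34 (chr5:86889767-86906937) was lower, at 316 and 287 CPM in health against 146 and 138 CPM in acute and 131 and 157 CPM in chronic injury. The same gene was lower in members with more Acer2 plus Krt20 UMIs, and its acute log2 change was -1.09 under the rule and -0.71 and -0.61 under the stricter forms.

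Of 30 interferon and MHC class I genes, 14 were above health and 2 below in acute injury (median 0.47) and 11 above and 0 below in chronic injury (0.42). Without healthy replicate 1 the medians were 0.91 and 0.99. With at least 10 UMIs the median was 0.24 in acute injury (9 of 27 above and 3 below) and 0.37 in chronic injury. Over all genes under that rule 16.4% were above and 15.7% below in acute injury. The summed level of the list overlapped between the groups, at 3086 and 1938 CPM in health, 2286 and 1813 CPM in acute and 2170 and 2652 CPM in chronic injury. The values came unevenly from the libraries. Irf7, an interferon-induced transcription factor, stood at 8.38 and 1.05 CPM in health, 38.7 and 21.6 CPM in acute and 11.3 and 108 CPM in chronic injury, so the 2 chronic libraries differed from each other more than either acute one from health. H2-K1, a classical MHC class I gene, stood at 590 and 349 CPM in health and 319 and 203 CPM in acute injury. Leukocyte markers summed to 147 and 145 CPM in healthy, 49.95 and 199 CPM in acute and 188 and 255 CPM in chronic superficial cells. Their part in the interferon and MHC values was not tested.

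Cornified envelope and gasdermin C genes, counted as 1 list, were above health in 8 of 13 cases and below in 3 in chronic injury (median 0.86), against 4 above and 2 below in acute injury. The chronic median was 0.45 without healthy replicate 1, 1.51 without healthy replicate 2, and 0.54 and 0.30 under the stricter rules. Sprr2b stood at 32.2 and 38.1 CPM in health, 46.8 and 53.3 CPM in acute and 78.5 and 84.0 CPM in chronic injury (log2 change 1.21 ± 0.21 SE in chronic, adjusted p = 0.375). Ivl, involucrin, went the opposite way at 1215 and 1392, 770 and 774, and 839 and 820 CPM. The desaturase Fads1 stood at 141 and 135 CPM in health against 69.9 to 75.3 CPM in the 4 injured libraries (log2 change -0.89 ± 0.19 SE in acute and -0.96 ± 0.19 SE in chronic, adjusted p = 0.476 and 0.454). Defb1 stood at 101 and 90.3 CPM against 31.3 to 52.98 CPM in injured libraries. Uroplakin levels overlapped for 5 of 6 genes in each comparison.

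The remaining lists had no member with an adjusted p below 0.05 by edgeR. Sterol and fatty acid genes counted 5 of 34 above and 6 below health in acute injury and 13 above and 3 below in chronic injury (median 0.21). Urothelial transcription factors counted 0 of 24 above and 6 below in acute and 1 above and 7 below in chronic injury. NF-kB, cytokine and chemokine genes counted 0 of 19 above and 8 below in acute injury, beside 1 of 30 above and 9 below for the immediate-early and dissociation genes. In chronic injury each of these 2 lists had 3 above and 4 below. Leukocyte markers counted 8 of 12 above health in chronic injury and 0 of 12 in acute injury.

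Whether injury changed superficial cells differently from other urothelial cells of the same libraries was tested as an interaction over 13102 genes. Acute injury gave 63 genes (0.481%), 19 with a higher (0.145%) and 44 with a lower change (0.336%) in superficial cells, and chronic injury 9 genes (0.0687%), 3 higher (0.0229%) and 6 lower (0.0458%). The acute count includes Krt5 and Krt15, which the rule used, and is 61 without them. At an unadjusted p below 0.05 there were 1363 (10.4%) and 979 (7.47%). Gsdmc2 (chr15:63824346-63845177), of a gasdermin family that forms membrane pores, was at 55.1 and 219 CPM in healthy superficial cells and 250 and 278 CPM in acute ones, against 229 and 586 CPM and 472 and 305 CPM in other urothelial cells. Its change was 1.25 on the log2 scale in superficial and 0.05 in other cells (interaction 1.18 ± 0.22 SE, adjusted p = 0.0183). Healthy replicate 1 was far lower than the other 5 superficial sums. In the opposite direction, Defb1 had an interaction of -1.18 ± 0.16 SE (adjusted p = 0.00212 by edgeR). Ugt2b34 had -1.14 ± 0.15 SE (adjusted p = 0.00144 by edgeR). Both were nearly level in the other urothelial cells (-0.03 and 0.06). The paper reports Ugt2b34 as preferentially expressed in intermediate cells. Among members it dropped from 341 CPM at 5 or 6 UMIs of Acer2 plus Krt20 to 56.9 CPM at 20 or more. The lowest bin held 38.4% and 39.1% of healthy but 17.5% and 22.0% of acute members. The part of this sampling in the interaction was not tested. For chronic injury, Phlda3 changed by 1.27 in superficial and 0.47 in other cells (interaction 0.81 ± 0.14 SE, adjusted p = 0.0323).

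These calls depended on the rule. Without healthy replicate 1 there were 11 acute calls, and without acute replicate 1 there were 27, of which 7 and 16 were among the 61. All 61 kept the sign of their difference with any 1 library left out. The 61 were chosen in the fit of all libraries, which each of these fits mostly reuses, so the kept signs are no separate support. For chronic injury the counts were 2 and 3 without healthy replicates 1 and 2, 23 and 41 without acute replicates 1 and 2, and 0 and 1 without chronic replicates 1 and 2. With at least 10 UMIs, 7 of 61 acute calls outside the rule's genes were called again, and with 1 per 1000 UMIs 1 of 61, while 61 and 51 of the 61 had the same sign. The gene called under all 3 rules was Gsdmc2, with interactions of 0.99 and 1.05. Its neighbour Gsdmc3 had 1.03 under the rule and 1.11 and 1.08 under the stricter forms (adjusted p = 0.0356, 0.0553 and 0.109 by edgeR), and Gcnt1 had 1.02, 0.30 and 0.02. For chronic injury Phlda3 (1.27 and 1.05) and Cdo1, a cysteine dioxygenase named here after its values were seen (1.24 under the rule, 0.98 and 0.88), were called under all 3 rules. For chronic injury 7 of the 9 genes had the same sign with at least 10 UMIs and 3 of 9 with 1 per 1000 UMIs, where Defb1 and Ugt2b34 turned positive at 0.53 and 0.26.

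**Figure D5:**
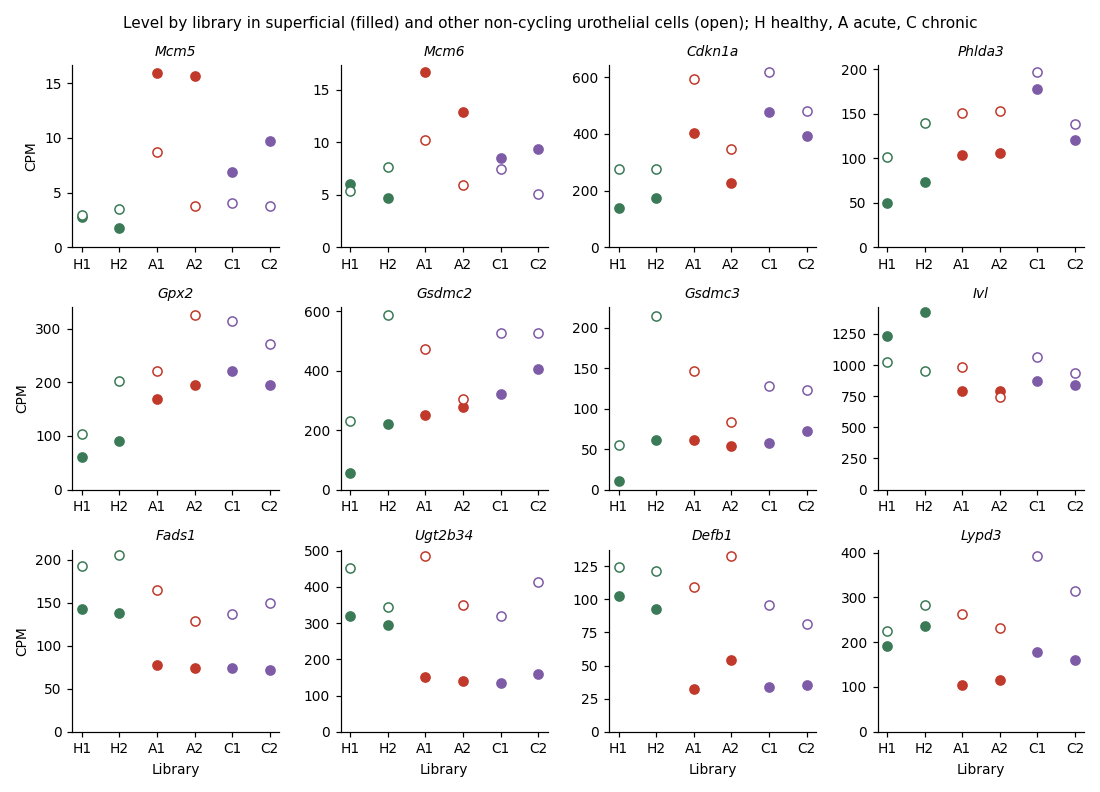
CPM of 12 genes in superficial (filled) and other non-cycling urothelial cells (open) of each library (H healthy, A acute, C chronic). Mcm5 is at most 3 CPM in healthy superficial cells and above 15 CPM in acute ones, Phlda3 and Gpx2 are higher in all 4 injured libraries, and Ugt2b34 and Defb1 are lower in injured superficial cells and near level in the other cells after acute injury.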

How the data were processed

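Cell suspensions were captured with the 10x Chromium 3' kit. Per the labels and the methods, the authors aligned reads to mm10 and counted UMIs with Cell Ranger, and the deposited tables hold raw counts per gene and cell. Barcodes with over 500 genes were kept. UMIs were summed per library and class, without 112 mitochondrial and ribosomal genes. Sums of the tested classes held at least 20 cells, and those of cells over the mitotic limit 6 in each healthy library. Groups were compared with edgeR 4.0.16 (TMM, filterByExpr, quasi-likelihood, Benjamini-Hochberg at 0.05) in R 4.3.3. DESeq2 1.42.0 was an alternative. CPM are TMM-scaled over the 6 superficial sums for comparisons of groups, over all 12 sums for comparisons of classes and interactions, and unscaled for bins, list sums and marker sums. Changes in CPM use a pseudocount of 1. Scrublet in scanpy 1.11.5 scored doublets (0.8% per 1000 cells called), which were left out only as an alternative. Scripts were tested on simulated data.

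Named genes were members of the lists, the 20 highest and 10 lowest class ratios at 50 CPM or more in 6 of 6 libraries, and the 12 highest and lowest changes per injury without overlap (5 for acute against chronic and for interactions). The members and lists were chosen with earlier results of these data known. Alternatives were the normalization, the filter, the rule, doublets, thinning to 4000 UMIs, the replicate block and leaving out each library.

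Gene coordinates are from the GENCODE annotation of mm10, and promoters and their starts from RefSeq.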

Additional observations from a re-analysis of the deposited data

Results flagged for a closer look

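The change after injury differed between superficial and other non-cycling urothelial cells for the genes below, each by edgeR's interaction test with the library as block and an adjusted p below 0.05. Values are log2 differences, superficial minus other. After acute injury the difference was positive for Gsdmc2 (1.18), Gsdmc3 (1.03), Phldb2 (1.03), Gcnt1 (1.02) and Slc4a4 (0.90), and negative for Hbb-bs (-3.62), Defb1 (-1.18), Enho (-1.16), Ugt2b34 (-1.14) and Pdk4 (-1.06). After chronic injury it was positive for Phldb2 (1.09) and Phlda3 (0.81) and negative for Hbb-bs (-1.40), Defb1 (-1.02), Ugt2b34 (-0.94), Lypd3 (-0.81) and Idh1 (-0.75). The 5 negative chronic differences turned positive with 1 per 1000 UMIs (Hbb-bs 1.01, Defb1 0.53, Ugt2b34 0.26, Lypd3 0.40 and Idh1 0.38). With at least 10 UMIs Hbb-bs was called in the opposite direction at 1.24 (adjusted p = 0.0397 by edgeR), and the other 4 were negative without passing the threshold. The chronic Phldb2 difference was 0.62 and 0.015 under the 2 stricter rules, and the acute Enho difference -0.77 and -0.08. Of the genes above, Gsdmc2 in acute and Phlda3 in chronic injury were called under both stricter rules as well. Cdo1, which the rule for named genes did not pick, had a chronic difference of 1.24 and was also called under both. The value of Hbb-bs rests on sums of at most 1.29 CPM in acute superficial cells.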

How the results depend on the processing

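Of 161 settings of the main results, 123 gave the same direction and side of the threshold or a count within 1.5 times, 30 moved and 8 turned. The settings for shares and for UMIs and genes per cell are among them. Their permutation tests could not pass the threshold, so these settings could only keep or turn direction. Of 1110 log2 changes of named genes, 998 were the same, 36 passed the threshold anew, 68 lost it and 8 turned, and of 300 class ratios 278 were the same.

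The share of acute against chronic libraries turned to 1.01 points with at least 10 UMIs of Acer2 plus Krt20 and to 0.583 with over 1000 genes and under 5% mitochondrial UMIs, and ran from -2.78 to 1.76 with 1 library left out. The acute against healthy difference in median UMIs per cell turned to 2111 with 1 per 1000 UMIs, an alternative chosen after seeing the data. With 1 library left out it ran from -2315 to 1581, and the difference in median genes ran from -87 to 341.

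Counts of called genes, acute against healthy: 15 with DESeq2, 0 with at least 10 UMIs, 1 with 1 per 1000 UMIs, and 0 to 58 with 1 library left out. Chronic against healthy: 28 with DESeq2, 3 with the replicate block, and 0 to 2 with 1 library left out. Acute against chronic: 0 to 66. Interaction counts for acute injury were 131 without a filter on low counts, 17 with at least 10 UMIs, 104 without Scrublet calls, 351 with over 1000 genes and under 5% mitochondrial UMIs, and 11 to 87 with 1 library left out. For chronic injury they were 25, 24, 16, 118 and 0 to 41, and 145 with 1 per 1000 UMIs.

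Under 1 per 1000 UMIs, chronic changes of Enho (0.13) and Noct (0.21), chronic interactions of Defb1 (0.53), Ugt2b34 (0.26), Lypd3 (0.40), Idh1 (0.38) and Hbb-bs (1.01, and 1.24 with at least 10 UMIs), the replication median in chronic injury (-0.0052) and the cornified median in acute injury (-0.29, and -0.083 to 0.65 with 1 library left out) turned. The causes were not tested.

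Replicate numbers are shared by the groups, but no label says that they pair libraries. The deviations of replicate 1 correlated at 0.38, -0.45 and -0.24 between groups over 3097 genes. With the replicate block acute against healthy gave 3 calls and acute against chronic 0. With 2 libraries a group, the spread rests on few degrees of freedom, and the healthy sums hold the fewest cells.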
